A study of Mus musculus with 55 samples.

Results

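Integrins and the proteins that join them to the actin cytoskeleton were followed in mouse lung RNA from 55 arrays, 1 array per mouse, of the Affymetrix whole-genome mouse design. The list held 36 gene symbols: integrin alpha and beta subunits, focal adhesion plaque proteins, small GTPases with their kinases, and the adhesion proteins Ctnnb1, Cdh1 and Cd44. Every probe set annotated to only 1 of these symbols was taken, which gave 88 probe sets of 34 genes, out of 45037 probe sets and 18193 genes with a symbol. Ptk2, the focal adhesion kinase, and Rock2 were not analysed here. Of the 34 genes, 9 have 1 probe set and none more than 6, and a gene is given below by its brightest probe set. The rule that picked the probe sets used no measured value, but the list was drawn up with earlier results of these data known.

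All animals were male mice of strain C57BL/6 (C57BL/6J in the methods of the study), 6 weeks old, that were first kept on their diet for 2 weeks. Mice on the diet labelled LRD were left as controls or received sodium arsenite for 5 weeks, at 10 ppb in food, 10 ppb in drinking water or 100 ppb in drinking water (4, 5, 5 and 3 mice). Mice on the AIN-76A diet were treated in the same 4 ways (5 controls, then 5, 4 and 4 mice in the order above). A further 20 mice on AIN-76A received an intraperitoneal injection and were examined at 8 hr: saline alone, 1 mg/kg dexamethasone, 1 mg/kg sodium arsenite, or both agents at 1 mg/kg, with 5 mice each. No group received an injection on the LRD diet. The labels call the mice of a group biological replicates and give each a letter, and the letters do not link mice of different groups.

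Array quality differed. The values are log2 values made by robust multiarray averaging (RMA), and the SD of an array over its probe sets ran from 2.294 to 2.418 in 52 arrays but was 1.89 in AIN 100 ppb water replicate B, 2.227 in LRD 10 ppb water replicate C and 1.172 in arsenite injection replicate E. These 3 arrays were left out of all values unless they are named. That left 4 LRD mice with 10 ppb in water, 3 AIN mice with 100 ppb in water and 4 arsenite-injected mice. The raw array file names fall into 5 batches of 11 arrays. Thymus markers (mean of Rag1, Dntt, Ptcra and Themis) stood at 7.90 in saline replicate E and 9.94 in AIN 10 ppb water replicate E and at most at 4.16 in the other 50 arrays. Platelet markers were at 10.75 in saline replicate F, the highest of the injected mice. The mean of 4 fat markers ran from 5.28 to 10.11 in saline mice and from 5.38 to 8.92 with dexamethasone. It ran from 4.49 to 6.23 with arsenite and from 5.01 to 5.88 with both agents. The mean of 5 skeletal muscle markers reached 10.81 in LRD mice with 10 ppb in food and 10.38 in AIN mice with 10 ppb in water. The latter group also reached 10.61 in fat markers.

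Integrins are pairs of an alpha and a beta subunit that span the cell membrane. Outside the cell they bind collagen, laminin, fibronectin or receptors on other cells, and inside it talin, vinculin, paxillin and filamin tie them to actin filaments, while small GTPases such as Rac1 and Cdc42 govern the assembly and contraction of those filaments. In lung, subunits such as Itga1, Itga3, Itga8 and Itgb1 are used by epithelium, endothelium and mesenchyme, whereas Itgal, Itgam and Itgax pair with Itgb2 on leukocytes, and Itga4 and Itgb7 serve lymphocyte homing. Glucocorticoids such as dexamethasone are known to lower the number of lymphocytes in blood and to suppress inflammation.

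The promoters of 4 leukocyte integrin genes that were lower after dexamethasone in the injected mice are shown here because the genes moved together. Each window runs from 250 bases before to 50 bases after the annotated start site (RefSeq, build GRCm38.p6) and is written 5′ to 3′ on the strand of the gene. Capitals mark matches on either strand to 3 short motifs: TGTTCT or AGAACA, part of the binding site of the glucocorticoid receptor; GAGGAA or TTCCTC, the core bound by the myeloid factor PU.1; and TGTGGT or ACCACA, the core bound by RUNX factors.
Itgam, chr7:128062390-128062689, plus strand: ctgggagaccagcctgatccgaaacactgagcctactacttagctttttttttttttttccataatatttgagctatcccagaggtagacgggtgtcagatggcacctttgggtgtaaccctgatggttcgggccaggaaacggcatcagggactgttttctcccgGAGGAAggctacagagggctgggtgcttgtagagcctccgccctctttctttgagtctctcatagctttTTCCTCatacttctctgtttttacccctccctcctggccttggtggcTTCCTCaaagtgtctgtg
Itgax, chr7:128129300-128129599, plus strand: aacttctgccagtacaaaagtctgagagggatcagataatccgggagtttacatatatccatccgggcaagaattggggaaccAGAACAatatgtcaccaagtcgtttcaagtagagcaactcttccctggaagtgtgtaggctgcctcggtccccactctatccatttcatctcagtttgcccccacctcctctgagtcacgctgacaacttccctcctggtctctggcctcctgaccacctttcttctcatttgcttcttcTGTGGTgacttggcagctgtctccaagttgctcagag
Itgb7, chr15:102231886-102232185, minus strand: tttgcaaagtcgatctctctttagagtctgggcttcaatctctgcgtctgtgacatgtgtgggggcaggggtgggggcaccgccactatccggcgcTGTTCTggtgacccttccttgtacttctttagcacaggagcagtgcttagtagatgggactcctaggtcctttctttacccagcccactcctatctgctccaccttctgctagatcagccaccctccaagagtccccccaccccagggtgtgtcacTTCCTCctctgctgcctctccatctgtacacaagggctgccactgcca
Itga4, chr2:79255176-79255475, plus strand: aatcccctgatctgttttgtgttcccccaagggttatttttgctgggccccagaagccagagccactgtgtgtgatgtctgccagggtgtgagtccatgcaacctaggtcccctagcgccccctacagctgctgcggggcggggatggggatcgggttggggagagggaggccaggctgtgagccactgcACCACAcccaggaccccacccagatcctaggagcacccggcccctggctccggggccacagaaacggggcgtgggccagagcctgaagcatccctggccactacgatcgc

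The Itgam window holds 3 PU.1 cores, at positions -84, -15 and 32 from the start site. Itgax, whose window begins 66.9 kb from that of Itgam, holds no PU.1 core but a glucocorticoid receptor motif at -167 and a RUNX core at 13. Itgb7 holds a glucocorticoid receptor motif at -154 and a PU.1 core at 2, and Itga4 a RUNX core at -60. The table of promoters lists 25 of the 34 genes, among them 6 of the 9 that fell after dexamethasone. Counted per gene, with a gene taken to hold a motif where any of its windows does, 5 of the 25 held the glucocorticoid receptor motif, 10 the PU.1 core and 4 the RUNX core. The shares among all 27025 genes of the table were 21.3%, 31.3% and 18.9%, and per window, over 32851 windows, 19.0%, 28.3% and 16.8%. A match is only a run of letters and shows no binding.

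In whole lung, the RNA of integrins of leukocytes was lower in mice given dexamethasone, and most plaque proteins and GTPases did not pass the test. In saline mice compared with dexamethasone mice, Itgal and Itga4 passed the test, and among arsenite-injected mice, with or without dexamethasone, Itgal did. Averaged over both arms, a contrast added after the data had been seen, 9 of the 34 genes fell and none rose: Itgam, Itgal, Itga4, Itgb7, Itgb2, Itga6, Itgax, Flna and Itga8. Changes were tested with limma over all 45037 probe sets, and a gene passed where its Benjamini-Hochberg adjusted p was under 0.05.

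Itgal encodes the alpha subunit of LFA-1, the integrin with which lymphocytes hold on to ICAM-1. Its log2 level was 8.48, 8.26, 8.39, 8.92 and 9.69 in the 5 saline mice (replicates B, C, D, E and F) and 7.56, 7.44, 7.01, 7.11 and 7.52 in the 5 dexamethasone mice (A, B, C, E and F). All 5 dexamethasone mice lay below all saline mice. With arsenite alone the 4 mice (A, B, C and F) had 8.69, 8.47, 9.38 and 8.70, and with both agents the 5 mice (A, C, D, E and F) had 7.54, 7.21, 8.02, 7.32 and 7.60, again with no overlap. The log2 change was -1.42 (SE 0.23, adjusted p = 0.00831) against saline and -1.27 (SE 0.25, adjusted p = 0.0222) in arsenite-injected mice, or 2.68-fold and 2.42-fold lower. The call in the arsenite arm was lost without arsenite replicate C or F or without replicate C or E of the mice with both agents, where the change was -1.31 to -1.08. Averaged over both arms it was -1.35 (95% CI -1.70 to -0.99, adjusted p = 0.000232). Both of its probe sets fell.

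Itga4, the alpha subunit of VLA-4 and of the homing receptor with Itgb7, had 7.54, 7.31, 7.31, 8.17 and 8.78 in saline mice and 6.93, 6.83, 6.24, 6.17 and 6.66 in dexamethasone mice. The arsenite mice had 7.40, 7.63, 8.47 and 7.67 and the mice with both agents 6.42, 6.50, 7.35, 6.64 and 6.47. In each arm every mouse with dexamethasone was below every mouse without it, though replicate D of the mice with both agents lay just below the lowest arsenite mouse. The changes were -1.25 (SE 0.27, adjusted p = 0.0408) against saline and -1.12 (SE 0.29, adjusted p = 0.0872) in the arsenite arm, and -1.18 (95% CI -1.60 to -0.77, adjusted p = 0.00177) over both arms. The call against saline was lost without saline replicate B, E or F or dexamethasone replicate B, C, E or F, where the change was -1.32 to -1.01. All 5 probe sets of Itga4 had a change below 0, and the brightest was the only one to pass.

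Itgam encodes the alpha subunit of Mac-1, the CD11b of neutrophils, monocytes and NK cells. It had 5.13, 5.58, 4.95, 5.51 and 6.16 in saline mice and 4.58, 3.28, 4.16, 4.17 and 4.37 in dexamethasone mice, which did not overlap. In the arsenite arm the levels were 6.14, 4.93, 7.39 and 5.54 without dexamethasone and 5.55, 3.47, 4.83, 4.12 and 3.79 with it, and here replicate A of the mice with both agents overlapped the arsenite mice. The change over both arms was -1.50 (95% CI -2.14 to -0.87, adjusted p = 0.00712), while neither arm passed alone (-1.36, adjusted p = 0.19, and -1.65, adjusted p = 0.101). Itgam has a single probe set, at a mean log2 level of 5.01, where the medians of the arrays ran from 4.245 to 4.369.

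Itgb2, the beta subunit shared by Itgal, Itgam and Itgax, had 9.99, 9.94, 9.52, 10.25 and 10.63 in saline mice and 9.66, 9.35, 8.95, 9.22 and 9.31 in dexamethasone mice. Only dexamethasone replicate A reached above the lowest saline mouse. The arsenite mice had 10.29, 9.89, 10.80 and 10.26 and the mice with both agents 9.42, 9.33, 9.81, 9.32 and 9.49, with no overlap. Over both arms Itgb2 fell by 0.80 on the log2 scale (95% CI -1.09 to -0.51, adjusted p = 0.00213), which is 1.74-fold.

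Itgb7, the beta subunit of the gut and mucosal homing receptors of lymphocytes, had 6.90, 6.39, 6.67, 7.31 and 7.48 in saline mice and 6.85, 6.21, 6.12, 5.63 and 5.93 in dexamethasone mice, where replicate A alone overlapped. With arsenite it had 6.82, 7.33, 7.24 and 6.74, and with both agents 5.42, 6.00, 6.48, 6.26 and 5.97, with no overlap. The change over both arms was -0.91 (95% CI -1.27 to -0.54, adjusted p = 0.00475). Itgax, the CD11c of alveolar macrophages and dendritic cells, had 8.66, 8.18, 7.78, 7.90 and 8.80 in saline mice and 7.95, 7.66, 7.16, 7.76 and 7.74 in dexamethasone mice. Its groups overlapped there but not in the arsenite arm, where 8.18, 8.24, 8.31 and 8.27 stood against 7.55, 7.85, 7.89, 7.83 and 7.97. The change of Itgax over both arms was -0.52 (95% CI -0.79 to -0.26, adjusted p = 0.0253). This call was lost without arsenite replicate C or F, where the adjusted p reached 0.0586.

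**Figure D1:**
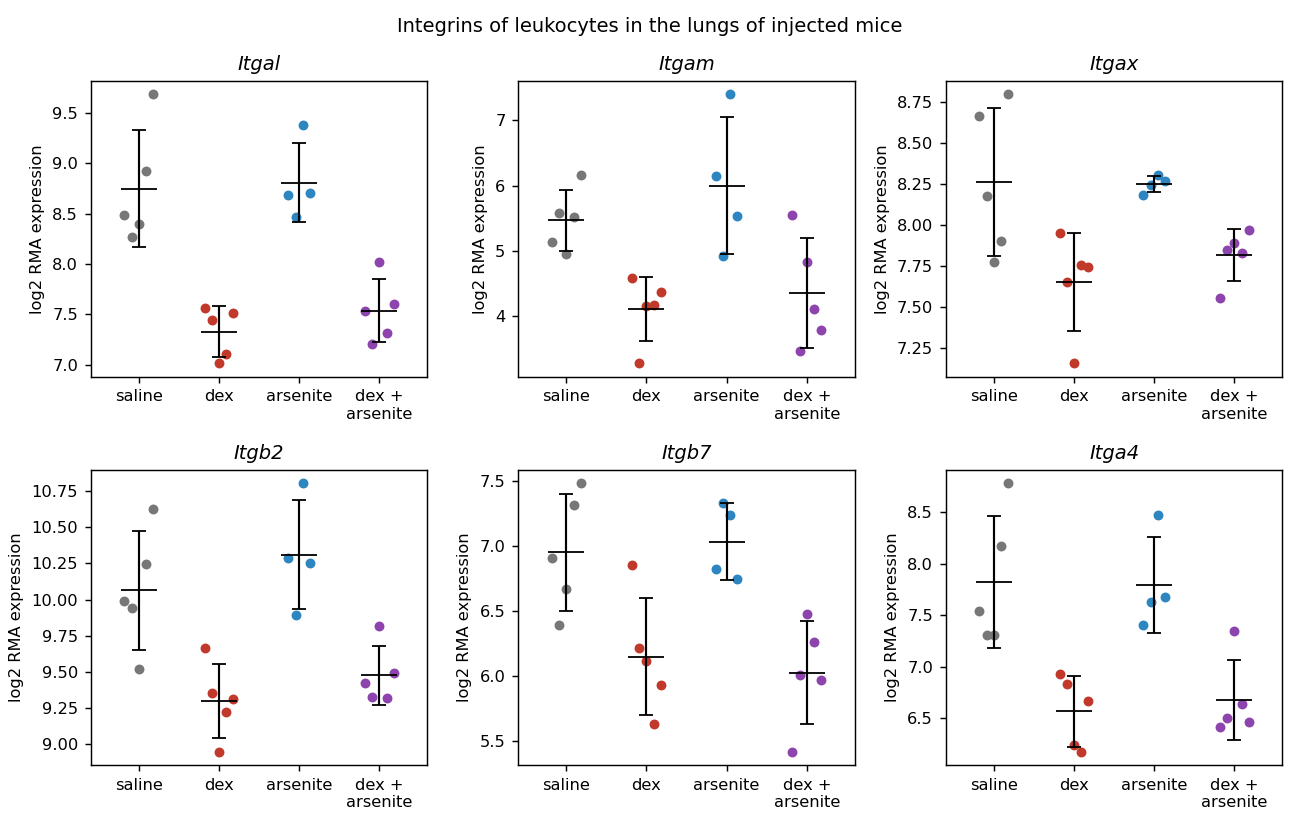
Log2 RMA expression (y axis) of Itgal, Itgam, Itgax, Itgb2, Itgb7 and Itga4 in each injected mouse (points), with the mean and SD of each group (black bars), by injection (x axis). In Itgal and Itga4 all mice given dexamethasone lie below all mice of the same arm that were not.

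Itga6, which binds laminin in epithelium, endothelium and platelets, had 9.31, 8.91, 9.13, 9.38 and 9.89 in saline mice and 8.85, 9.10, 8.61, 8.89 and 9.02 in dexamethasone mice. The arsenite mice had 9.91, 9.21, 9.83 and 9.86, and the mice with both agents 8.83, 9.03, 8.98, 9.04 and 9.15. Its groups overlapped in the saline arm and not in the arsenite arm, and the change over both arms was -0.56 (95% CI -0.80 to -0.32, adjusted p = 0.00871). Both of its probe sets fell.

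Flna, the actin crosslinker filamin A, was the only plaque gene that fell by its brightest probe set. Both probe sets of Zyx had a change below 0, and its dimmer one passed over both arms (-0.34, mean log2 level 4.41). Flna had 9.69, 9.81, 9.93, 9.46 and 10.15 in saline mice and 9.39, 9.74, 9.64, 9.10 and 9.09 in dexamethasone mice, then 9.86, 9.78, 9.92 and 9.73 with arsenite and 9.25, 9.12, 9.19, 9.58 and 9.47 with both agents. The arsenite arm had no overlap, and the change over both arms was -0.46 (95% CI -0.67 to -0.24, adjusted p = 0.0157). Itga8, an integrin of alveolar fibroblasts and smooth muscle, changed by -0.46 over both arms (95% CI -0.68 to -0.23, adjusted p = 0.0223), a call that was lost without arsenite replicate C or F (adjusted p up to 0.0576) or with the mean of its 2 probe sets. None of the 4 markers of fibroblasts and none of the 4 of smooth muscle passed the test in either direction.

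Against saline, 0 of 34 members rose and 2 fell, while 0.341% of all genes rose and 0.638% fell. In the arsenite arm 0 members rose and 1 fell, with 0.44% and 0.5% of all genes. Over both arms the counts were 0 higher and 9 lower, with 1.61% of all genes higher and 3.35% lower. The median change of the members was -0.15 and that of all genes -0.01. Mice with dexamethasone did not overlap mice without it, on the low side, in 3 members against saline (1.9% of all genes) and in 8 members in the arsenite arm (3.44%). Itgal and Itga4 met this in both arms, as did 0.682% of all genes.

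The classes of members differed in their counts over both arms, where 3.35% of all genes fell. Of 12 alpha subunits 6 fell, of 6 beta subunits 2, of 9 plaque genes 1, and of the 7 GTPase and junction genes 0. All 5 leukocyte integrins (Itgal, Itgam, Itgax, Itgb2 and Itgb7) fell, with a median change of -0.91, and so did Itga4, while 3 of the other 28 members fell, with a median of -0.08. The arms share no array, and the 6 genes Itgal, Itgam, Itgax, Itgb2, Itgb7 and Itga4 were below 0 in both. All 6 had passed in the mean of these same arms, so their shared sign is no separate support. Over the 34 members 19 were below 0 in both, 3 above 0 in both and 12 had opposite signs, so that 64.7% had the same sign, against 57.9% of all genes.

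**Figure D2:**
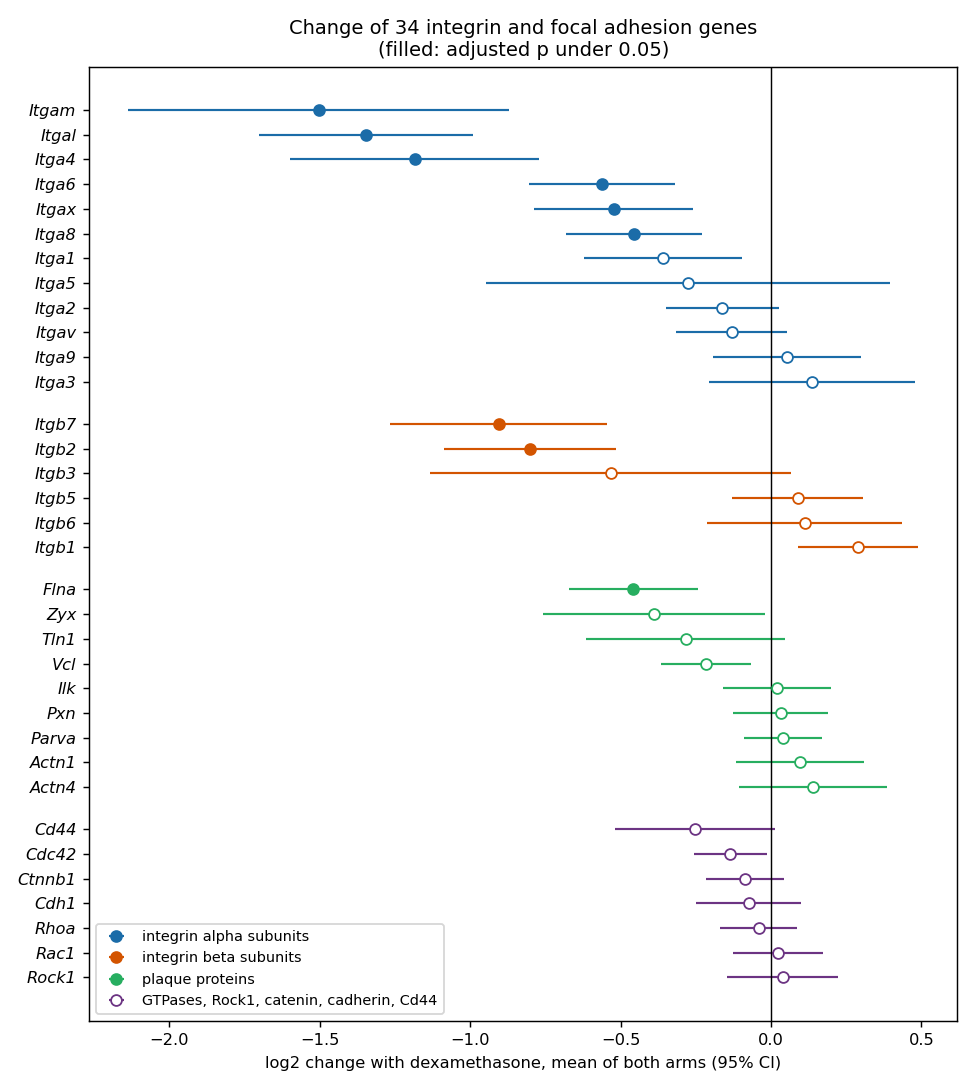
Log2 change with dexamethasone, averaged over both arms (x axis, with 95% CI as bars), of the 34 members (y axis), coloured by class and filled where the adjusted p was under 0.05. The 9 filled points all lie below 0, and 8 of them are integrin subunits.

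Among the subunits that did not pass, Itgb1, the partner of most matrix-binding alpha subunits, had a change of 0.29 over both arms (95% CI 0.09 to 0.49, adjusted p = 0.122). Its levels were 10.05, 9.95, 9.92, 10.00 and 9.94 in saline mice and 10.02, 10.60, 10.65, 10.39 and 10.43 in dexamethasone mice, so that 4 of the 5 dexamethasone mice lay above all saline mice. Itgb1 passed over both arms without replicate A of the dexamethasone mice (0.34, adjusted p = 0.0388) or without replicate A of the mice with both agents (0.34, adjusted p = 0.0248). Itga1, a collagen receptor, had -0.36 (95% CI -0.62 to -0.10, adjusted p = 0.158), but its other probe set had 0.10 (mean log2 level 5.56). Vcl, vinculin, had -0.22 (95% CI -0.37 to -0.07, adjusted p = 0.123), but its other probe set had 0.22 (mean log2 level 6.46). The probe sets of both genes thus differed in sign. The GTPases Rac1, Rhoa and Cdc42 had 0.02, -0.04 and -0.13, with intervals that all lay between -0.26 and 0.17. The catenin Ctnnb1 and the cadherin Cdh1 of epithelial junctions had -0.09 and -0.07, and Cd44, a hyaluronan receptor, had -0.25 (95% CI -0.52 to 0.01).

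The 2 dexamethasone arms were also set against each other. In this interaction no member was called and no gene of 18193 (0% higher and 0% lower in limma), with 1 member and 804 genes at an unadjusted p under 0.05. For Itgal the difference between the arms was 0.15 (95% CI -0.56 to 0.86), for Itga4 0.14 (-0.69 to 0.96) and for Itgb2 -0.07 (-0.64 to 0.50). The member with the smallest unadjusted p was Itga1, at -0.62 (-1.15 to -0.10, adjusted p = 0.999), followed by Itga5 at 1.13 and Itgb1 at -0.31.

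Rank products, used as a second method with an estimated share of false positives under 0.05, listed 6 members lower against saline (Itga4, Itga5, Itgal, Itgam, Itgb2 and Itgb7) and 7 in the arsenite arm (Itga4, Itga6, Itgal, Itgam, Itgb2, Itgb3 and Itgb7). Of all genes, each by its brightest probe set, they listed 2.42% lower and 1.11% higher against saline and 2.2% lower and 1.56% higher in the arsenite arm. They listed 0 members higher in either arm. Itga5 had a limma change of -0.84 against saline, which was -0.11 (adjusted p = 0.76) with array batch as a block. Itgal, Itga4, Itgam, Itgb2 and Itgb7 were on both lists.

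Genes outside the list that work beside these integrins were counted in the same contrast over both arms, where 1.61% of all genes rose and 3.35% fell. Of 15 integrin ligands 1 rose, Col4a1 (0.53, adjusted p = 0.0319), a basement membrane collagen, and 3 fell: Tnc, tenascin C (-1.02, adjusted p = 0.000390), Vcam1, the endothelial ligand of Itga4 (-0.52, adjusted p = 0.0395), and Npnt, nephronectin, a ligand of Itga8 (-0.35, adjusted p = 0.0356). Of 35 other plaque and signalling genes Elmo1 rose (0.54, adjusted p = 0.00965) and 4 fell. These were Vav1, a Rac activator of blood cells (-0.97, adjusted p = 0.00276), Fermt3, the kindlin of blood cells (-0.86, adjusted p = 0.0441), Ptk2b (-0.73, adjusted p = 0.00765) and Fyn (-0.50, adjusted p = 0.005). Of 18 actomyosin regulators Rnd1 rose (0.75, adjusted p = 0.00253), and Rac2, the Rac of blood cells (-1.35, adjusted p = 0.00359), Arhgdib (-0.92, adjusted p = 0.0057) and Myh10 (-0.52, adjusted p = 0.0042) fell. Of 13 junction genes and of 6 integrin subunits outside the list, 0 passed in either direction, with medians of 0.02 and -0.16.

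Markers of several leukocytes moved with the leukocyte integrins, while 3.35% of all genes fell over both arms. The mean of the 5 integrins was 7.90 ± 0.41 (SD, n = 5) in saline mice, 6.91 ± 0.26 (n = 5) with dexamethasone, 8.08 ± 0.38 (n = 4) with arsenite and 7.04 ± 0.24 (n = 5) with both agents, and mice with and without dexamethasone did not overlap. All 4 NK cell markers fell over both arms (Gzma -1.74, Nkg7 -1.58, Prf1 -0.89 and Ncr1 -0.54), and their mean ran from 5.70 to 6.98 in saline mice, 4.74 to 5.42 with dexamethasone, 5.96 to 6.49 with arsenite and 4.46 to 5.82 with both agents. Of 7 neutrophil markers 3 fell (Csf3r -1.83, S100a9 -1.76 and S100a8 -1.47), but their mean overlapped between groups, with 7.46 to 10.03 in saline mice and 7.73 to 8.20 with dexamethasone, 7.91 to 10.40 with arsenite and 7.57 to 10.43 with both agents.

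Of 7 markers of macrophages and monocytes 2 fell (Ccr2 -1.48 and Csf1r -0.63), with means of 8.57 to 9.54, 8.37 to 9.06, 8.80 to 9.54 and 8.44 to 9.02 in the same order of groups. By sign, 5 of these 7 markers were below 0 and 2 above 0, so the list did not move as 1. Of 5 T cell markers 1 fell (Cd3d -1.31), with 5.09 to 7.58, 4.81 to 5.13, 5.16 to 5.78 and 4.74 to 5.02, and of 3 B cell markers 1 fell (Cd79a -1.47), with 5.64 to 9.20, 5.12 to 7.47, 6.70 to 7.92 and 5.17 to 6.49. None of the 4 platelet and 4 thymus markers passed, nor any of the 3 markers of alveolar type II cells, 4 of type I cells or 6 of endothelium. The same held for the 4 markers of fat, 5 of skeletal muscle and 4 of heart muscle. The part of these cell types in the integrin values was not tested. In whole lung RNA fewer cells of a type and less RNA per cell cannot be told apart.

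**Figure D3:**
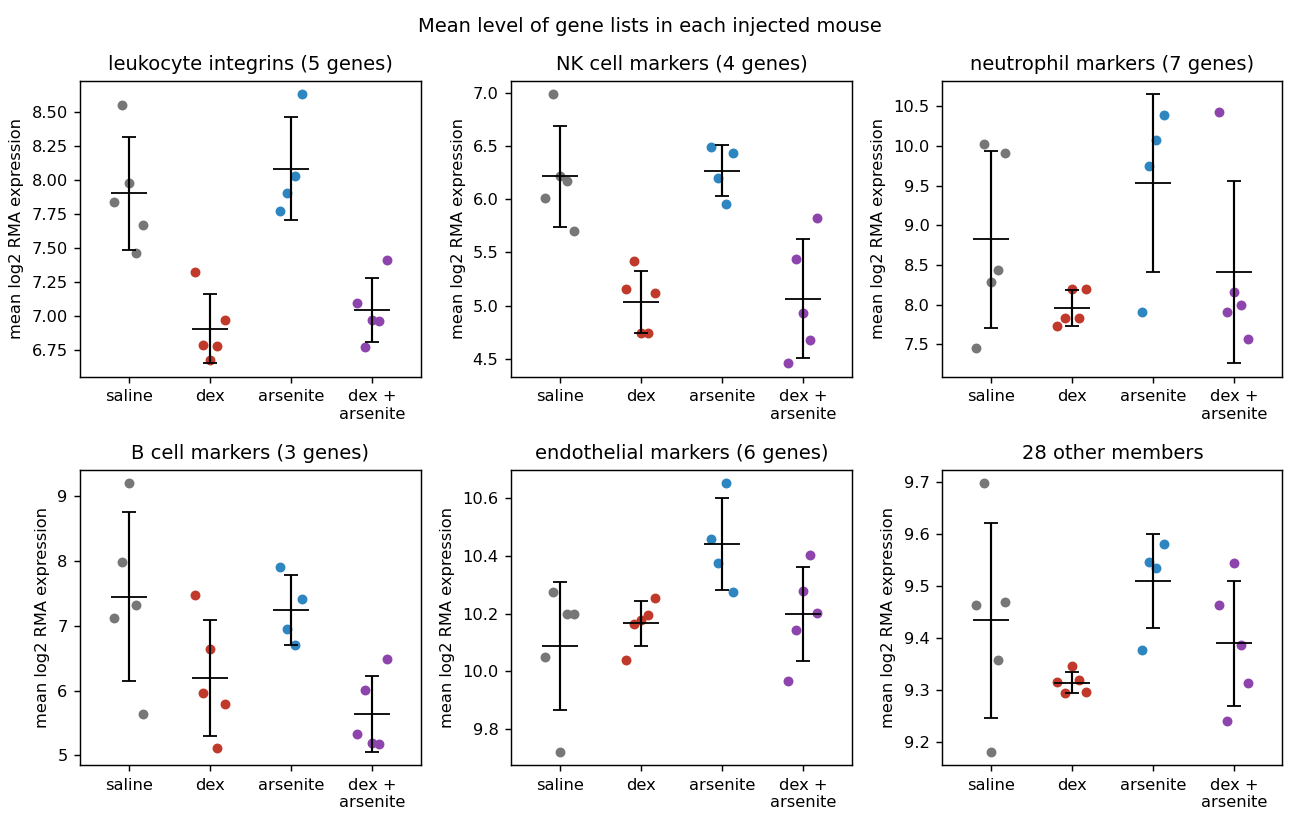
Mean log2 RMA expression (y axis) of 6 gene lists in each injected mouse (points), with group mean and SD (black bars), by injection (x axis). Leukocyte integrins and NK cell markers are lower in both groups with dexamethasone, whereas endothelial markers overlap between mice with and without dexamethasone in both arms.

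Leaving out the saline mouse with thymus markers (replicate E) gave 10 members lower over both arms, and leaving out the one with the most platelet markers (replicate F) gave 9. As a check of the dexamethasone labels, 3 glucocorticoid target genes were read. Fkbp5, Tsc22d3 and Zbtb16 had changes of 0.07, -0.17 and -0.69 against saline and 1.54, 0.38 and 1.35 in the arsenite arm, and none passed the test in either arm or over both. Against saline Tsc22d3 and Zbtb16 were below 0, the opposite of their known induction, so these genes give no independent check of the dexamethasone labels in that arm. In the arsenite arm all 3 were above 0 but did not pass, so the labels of that arm were not checked by a passed test either.

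The levels of some members followed the array batch. With the group means taken out, 82.0% of the remaining sum of squares of Itga5, the fibronectin receptor subunit, lay between batches, and the share was 74.2% for Zyx, 72.0% for Ilk, 70.0% for Tln1 and 67.1% for Actn4. It was over 50% in 8 members (23.5%) and in 14.4% of all genes, while the medians were 24.3% and 24.8%. Itgal, Itgam, Itgb2 and Itgb7 stood at 5.9%, 5.8%, 7.9% and 8.9%.

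Itga5 fell into separate levels: the arrays of batches 1 and 3 had 7.35 to 8.05, and those of batches 2, 4 and 5 had 5.17 to 6.43, with no array between. In batch 1, saline, dexamethasone and combined injection had 1 mouse each, at 7.59, 7.53 and 7.41. The arsenite group had no array in batches 1 and 3. With batch as a block the change of Itga5 over both arms was -0.24 (SE 0.07, adjusted p = 0.0577) in place of -0.28 (SE 0.32, adjusted p = 0.84).

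With batch as a block, 10 members fell over both arms and none rose, at 7.68% of all genes called in either direction. Zyx, the zyxin of stress fibres and focal adhesions, was the added gene, at -0.41 (SE 0.08, adjusted p = 0.00827) in place of -0.39 (SE 0.18, adjusted p = 0.339). Mice with and without dexamethasone could be set against each other in 6 pairings of the same arm and batch. Each set 1 mouse against 1, or against 2 arsenite mice in batch 5. The 9 members that fell had passed on these same arrays, so their pairings are no separate support. Of these 9, Itgal, Itga4, Itgam and Itga6 were lower in 6 pairings and Itgax, Itgb2, Itgb7, Itga8 and Flna in 5. Of the other 25 members, Itga5 was lower in 6, and Cdc42, Ctnnb1, Itga1, Itgav, Rhoa, Tln1, Vcl and Zyx (32.0%) in 5. Itgb1 was lower in 0 of the 6, with differences of 0.05 to 0.72. Among all genes 5.28% were lower in 6 pairings and 12.6% in 5, so that a lower value in 5 was common also among members that did not pass. The within-batch differences of Itgal ran from -2.67 to -0.83.

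**Figure D4:**
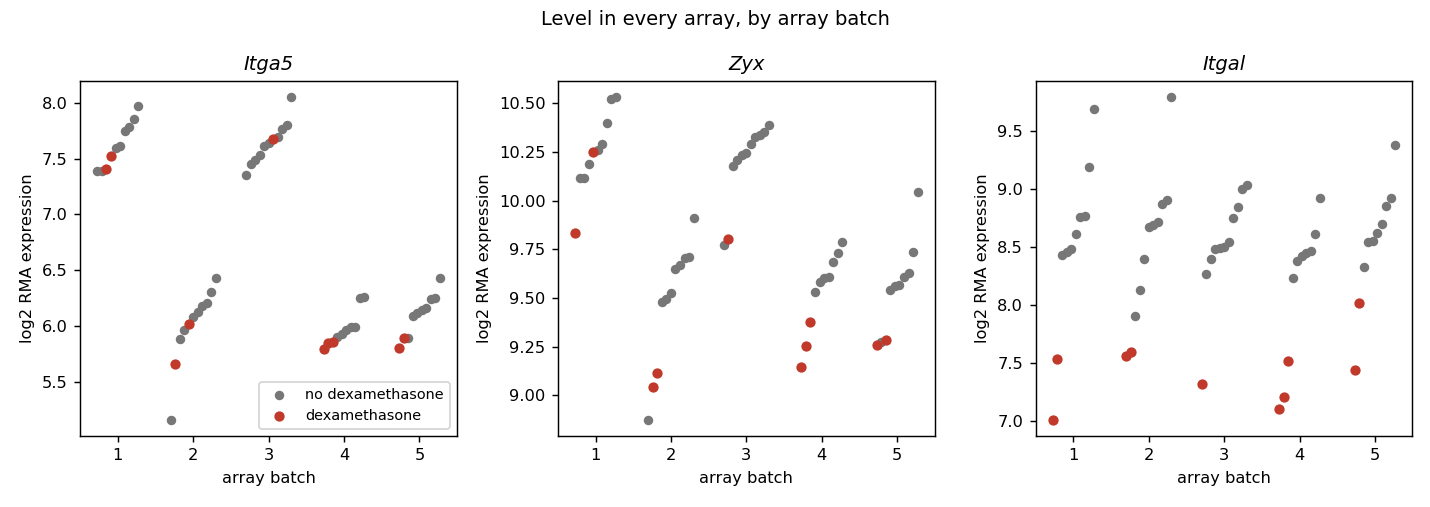
Log2 RMA expression (y axis) of Itga5, Zyx and Itgal in each of the 52 arrays (points, sorted by level within a batch), by array batch (x axis), with mice given dexamethasone in red. Itga5 is high in all arrays of batches 1 and 3, while mice given dexamethasone hold the lowest Itgal values of every batch.

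Arsenite injection moved no member past the test. Against saline 0 members and 0 genes were called higher or lower in limma (0% and 0%), with 3 members and 1527 genes at an unadjusted p under 0.05. Itga1 had 0.57 (95% CI 0.19 to 0.95, adjusted p = 0.641), Itgb6, an epithelial subunit, 0.57 (0.10 to 1.04, adjusted p = 0.683) and Itga6 0.38 (0.02 to 0.73, adjusted p = 0.717). Itga1 was 7.98, 8.06, 8.46, 8.17 and 8.48 in saline mice and 9.04, 8.48, 8.82 and 8.87 in arsenite mice, where replicate B alone met the saline mice. For Itgal the difference was 0.06 with an interval of -0.46 to 0.58, so a change as large as that of dexamethasone lay outside it. Rank products listed 1 member lower, Itga5, with 0.874% of all genes lower and 0.187% higher. The arsenite group has no array in the batches where Itga5 was high, and its limma change of -0.71 (adjusted p = 0.814) was 0.31 (adjusted p = 0.512) with batch as a block.

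Added to dexamethasone, arsenite also called 0 members and 0 genes (0% and 0%), with 0 members and 441 genes at an unadjusted p under 0.05. Itga2, Parva and Rac1 had the smallest p, with 0.20, -0.13 and 0.14. Averaged over both arms, a contrast added after the data had been seen, 0 members and 0 genes passed (0% and 0%), with 3 members and 1162 genes at an unadjusted p under 0.05: Itgb6 (0.40), Itga2 (0.22) and Itga6 (0.24). Rank products listed 0 members with arsenite added to dexamethasone, with 0.033% of all genes higher and 0.737% lower.

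In LRD mice none of the 3 exposures to arsenite moved a member past the test, and all 3 were compared with the same 4 control mice. The controls came from array batches 1, 2 and 4. Mice with 10 ppb in water came from 2, 3 and 5, with 100 ppb from 1, 3 and 4, and with food from 1, 2, 3 and 4. Exposure was therefore not balanced over batches, and LRD values with batch as a block are not given here. With 100 ppb in water, 0 members and 0 genes were called (0% and 0%), with 2 members and 795 genes at an unadjusted p under 0.05. Itgb3, the beta subunit of platelet and vascular integrins, had 7.01, 7.30, 7.83 and 7.56 in LRD control mice and 8.01, 7.89 and 8.19 in mice with 100 ppb, which did not overlap. Its change was 0.61 (95% CI 0.06 to 1.15, adjusted p = 1.00). The mean of 4 platelet markers was 8.01, 7.90, 8.91 and 8.32 in the same control mice and 8.63, 8.53 and 9.13 in the exposed mice, and its part in the Itgb3 values was not tested. Itgb5 (9.73 to 9.88 in controls, 9.98 to 10.02 with 100 ppb) and Itga9 (6.29 to 6.79 and 6.79 to 7.04) also lay higher without overlap, as did 3.81% of all genes. Itga8 had -0.25 and Itgb5 0.20.

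With 10 ppb in water, 0 members and 0 genes were called (0% and 0%), with 0 members and 645 genes at an unadjusted p under 0.05. The smallest p belonged to Rock1, a kinase of actomyosin contraction, Cdh1 and Ctnnb1, with 0.20, 0.19 and 0.11, and the members ran from -0.10 (Actn4) to 0.22 (Itgam). With 10 ppb in food, 0 members and 0 genes were called (0% and 0%), with 2 members and 507 genes at an unadjusted p under 0.05. Itga6 had -0.25, Itgb2 0.26 and Itgb3 0.42, and the Itgb3 levels of 7.01, 8.11, 8.33, 7.63 and 8.13 overlapped those of the controls. Rank products listed 0 members in any of the 3 LRD comparisons, while of all genes they listed 0% higher and 0.181% lower for 10 ppb in water, 0.011% and 0.247% for 100 ppb in water, and 0.203% and 0.0824% for food.

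Across the diets, LRD mice were set against AIN mice at matched exposure. No member was called, while 0.231% of all genes were higher and 0.055% lower in LRD mice. In limma 4 members and 972 genes had an unadjusted p under 0.05. Itgb2 had -0.18 (95% CI -0.34 to -0.02), Itga6 0.16 (0.02 to 0.29) and Itgax 0.18 (0.01 to 0.35), each with an adjusted p of 1.00. Among the genes of the other pathway and marker lists, Ccr2, the monocyte chemokine receptor, was the one that passed, at -0.76 (adjusted p = 0.0105).

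Over the 12 groups the 2 groups given dexamethasone held the lowest means of Itgal, 7.33 and 7.54, while the other 10 group means lay between 8.49 and 8.85 and overlapped in their spread. Of the 42 mice without dexamethasone 1 lay below the highest of the 10 mice with it, AIN 100 ppb water replicate C at 7.91. For Itga4 the dexamethasone group means were 6.57 and 6.68 and the others 7.59 to 7.94, and for Itgb7 6.02 and 6.15 against 6.82 to 7.03. The 2 dexamethasone groups were the lowest of the 12 in 13 members (38.2%) and in 10.0% of all genes. Itgam varied most without dexamethasone, from a group mean of 4.53 in AIN mice with 10 ppb in water to 6.00 in arsenite-injected mice.

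The mean of all 34 members was 9.16 ± 0.21 in saline mice, 8.88 ± 0.04 with dexamethasone, 9.25 ± 0.13 with arsenite and 8.96 ± 0.11 with both agents. LRD control mice had 9.14 ± 0.11, against 9.21 ± 0.13 in those exposed through food. In water the lower dose gave 9.19 ± 0.05 and the higher dose 9.26 ± 0.17. The LRD differences of 0.05, 0.12 and 0.07 with 10 ppb in water, 100 ppb in water and food were smaller than the SD between mice, whereas the dexamethasone differences of -0.28 in each arm were larger than it. Arsenite injection gave 0.088 against saline, below the SD of 0.173. Added to dexamethasone it gave 0.085, just above the SD of 0.081. Without Itga4 and the leukocyte integrins the mean of the other 28 members was 9.43 ± 0.19 in saline mice and 9.31 ± 0.02 with dexamethasone, a difference smaller than the SD of the saline mice. In the arsenite arm it was 9.51 ± 0.09 (n = 4) and 9.39 ± 0.12 (n = 5), a difference larger than the SD of the arsenite mice, and the mice of that arm ran from 9.38 to 9.58 and from 9.24 to 9.54, which overlapped.

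**Figure D5:**
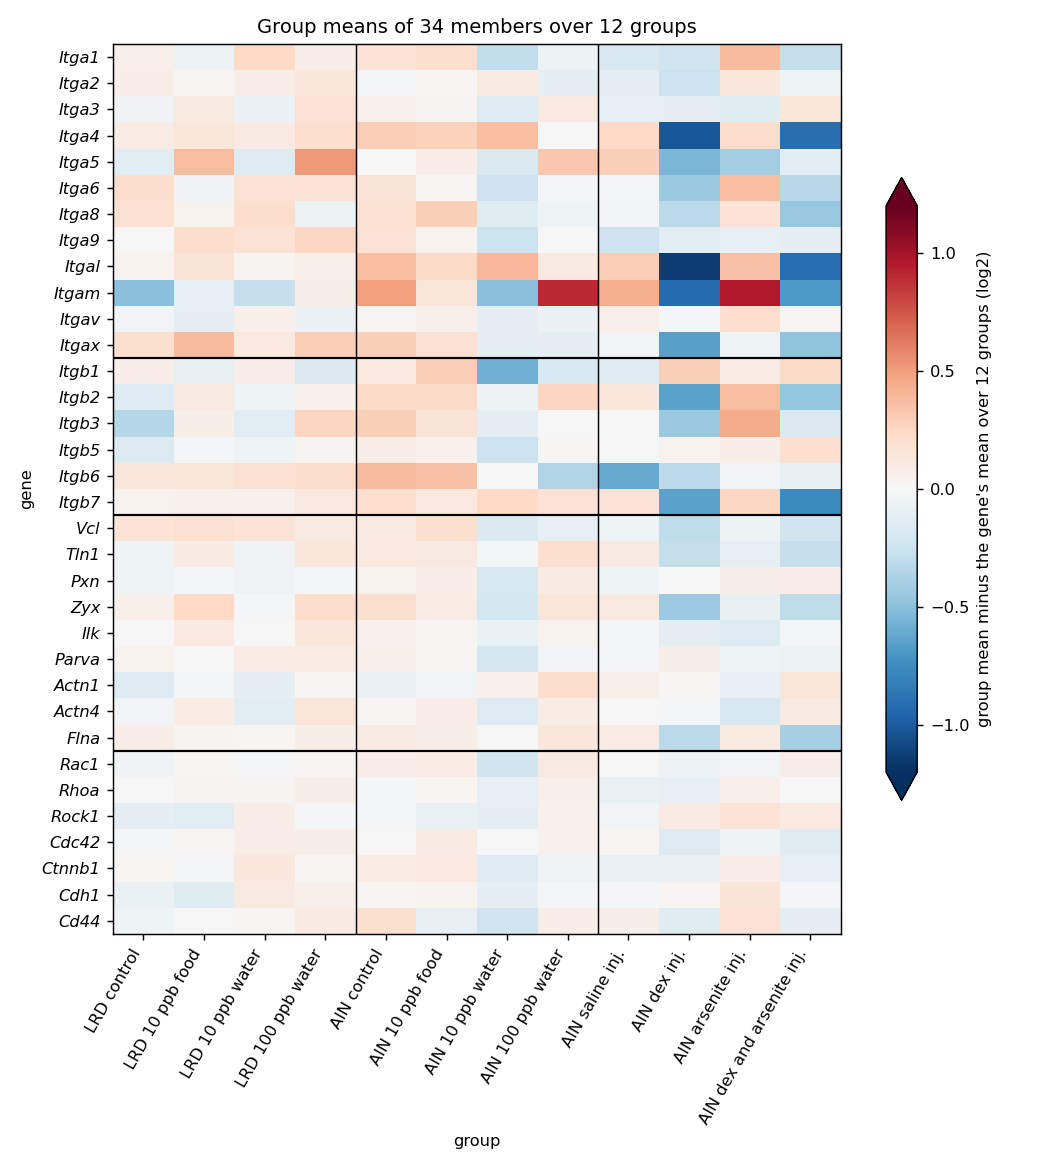
Group mean of each of the 34 members (y axis) minus the mean of the gene over 12 groups (colour, log2), by group (x axis), with horizontal lines between alpha subunits, beta subunits, plaque genes and GTPase and junction genes. Itgal, Itga4, Itgam, Itgb2, Itgb7 and Itgax have their lowest group means in the columns of mice given dexamethasone.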

How the data were processed

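Per the labels, the authors made log2 values from the scanned arrays by RMA and deposited 1 column per array; which arrays were normalized together is not given in the sources used here, and the raw arrays were not used here. Of 45101 probe sets 64 controls were left out. A symbol came from the platform annotation, where 34945 probe sets carry 1, 932 several and 9160 none, and 34741 of them matched the GRCm38.p6 annotation by Entrez number with 0 symbols changed. Precision is limited by the 3 to 5 mice of a group.

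The members and gene lists were chosen with earlier results of these data known. Groups were fitted with limma 3.58.1 in R 4.3.3, in separate models for the 4 injected groups, the 4 LRD groups and the 8 groups without injection, and p-values were adjusted (Benjamini-Hochberg) over 45037 probe sets. The rank product, the method of the article, was the second method for comparisons of 2 groups, with 100 random orderings in Python 3.11.15. Both were run on simulated independent normal values without array batches, so the runs do not cover the batch differences of these data. Called members were named, the 8 with the largest change in full; where none was called, the 3 with the smallest p are given, and at most 5 genes per direction of each other list. Replicate letters were not treated as pairs: the median correlation of same-letter mice was -0.04 in the injected groups and -0.06 in LRD mice, against 0.19 and 0.33 within an array batch. Alternatives were the batch and letter as blocks, a filter on dim probe sets, centring, quantile normalization, array weights, 1 model over 12 groups, the mean of all probe sets and leaving out each mouse. The mean of both arms, and the diet contrast without replicates A and E of AIN 10 ppb water, were added after the data had been seen. Replicates A and E were picked for their fat, muscle and thymus RNA.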

Additional observations from a re-analysis of the deposited data

Results flagged for a closer look

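In 4 of 98 groups tested, 1 mouse stood apart from the others by Dixon's test, and chance gives about 5% of groups. Itga6 was 9.21 in arsenite injection replicate B and 9.83 to 9.91 in the other arsenite mice, and Itga4 was 7.35 in replicate D of the mice given dexamethasone and arsenite and 6.42 to 6.64 in the others. Itga5 was 7.53 in dexamethasone replicate C and 5.67 to 5.86 in the other dexamethasone mice, and replicate C is the only one of them from array batch 1. The mean of the 34 members was 8.95 in dexamethasone replicate A and 8.85 to 8.88 in the others.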

How the results depend on the processing

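With leaving out each mouse set aside, there were 232 alternatives for counts of members and means over them, of which 212 held and 20 moved. A count held where it stayed equal or of similar size, which includes counts of 0 that stayed at 0. A mean held where it shifted by less than the SD between mice. For single named members direction and side of the threshold were scored: of 328, 302 held, 15 lost a call and 11 turned. The 9 members lower over both arms became 2 with the 3 low-quality arrays kept, 7 with a replicate block, and 7 to 10 when each mouse was left out. The block took the calls of Itgax and Flna. Array weights gave 1 member higher, Itgb1, and leaving out 1 mouse 0 to 1. The single arms were less stable: the 2 members lower against saline became 0 with a replicate block or with low-quality arrays kept, 1 with median centring or the mean of all probe sets, 5 in 1 model over 12 groups, 6 with array weights or rank products, and 1 to 4 when each mouse was left out. The 1 member lower in the arsenite arm became 0 with a replicate block or with low-quality arrays kept, 2 with the mean of all probe sets, 4 with the filter on dim probe sets or array weights, 7 with rank products, 8 in 1 model over 12 groups, and 0 to 4 without each mouse. Rank products listed 1 member lower with arsenite. For most limma alternatives the share of all genes called is not given here. A change in these counts therefore cannot be read as particular to the members.

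With the 3 low-quality arrays kept, among them the array with the narrowest spread, the mean of all members differed by 0.57 in the arsenite arm of dexamethasone, -0.766 with arsenite and -0.084 with 10 ppb in LRD water. The same setting turned Itga6 (0.0314), Flna (0.0415) and Itga8 (0.0723) over both arms, Itga1 (-0.38) and Itga6 (-0.81) with arsenite, Itga6 (-0.35) with arsenite over both arms, and the interaction of Itga1 (0.32) and Itgb1 (0.86). Itga5 turned in the interaction with batch as a block (-0.25), Parva with the mean of its probe sets (0.0266) when arsenite was added to dexamethasone, and Itgax between diets in control mice alone (-0.10). The cause was not tested. Groups of 3 to 5 mice limit what could be called.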
